A study of Mus musculus with 3 samples.

Results

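A set of 10 genes that mark cells other than epithelium were followed in H3K36me3 profiles of the fetal mouse pancreas: Col1a1 (ENSMUSG00000001506), Col1a2 (ENSMUSG00000029661), Col3a1 (ENSMUSG00000026043), Acta2 (ENSMUSG00000035783), Pdgfra (ENSMUSG00000029231) and Pdgfrb (ENSMUSG00000024620) for mesenchyme, Pecam1 (ENSMUSG00000020717), Kdr (ENSMUSG00000062960) and Cdh5 (ENSMUSG00000031871) for endothelium, and Ptprc (ENSMUSG00000026395) for blood. They were chosen by Ensembl identifier, and all 10 are among the 24318 identified genes. The cells are wild-type C57BL/6 pancreatic epithelial cells, marked by the surface protein EpCAM and sorted by flow cytometry from embryos at E11.5, E13.5 or E15.5, where E counts days of embryonic development. There is 1 CUT&Tag library per stage, 3 in all, so no difference could be tested, and every comparison is a description of these libraries. The sort was meant to leave these lineages behind, and the question is how much signal their genes carry beside genes of the epithelium.

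H3K36me3 is laid down over the bodies of genes by methyltransferases that travel with elongating RNA polymerase, so a transcribed gene usually carries it over its body more than at its start. In CUT&Tag an antibody against the mark brings a transposase to it, and the DNA nearby is cut and given sequencing adapters. In the fetal pancreas the epithelium buds into a mesenchyme that supplies growth signals and collagen matrix, and it lies close to blood vessels, whose endothelium is also a source of signals. In a bulk library fewer cells of a type cannot be told apart from less of the mark per cell. Whether the signal described here came from cells of these lineages or from background cutting was not tested.

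Each gene has 3 values per library, the mean coverage per position over windows headed GB, PR and SE. PR covers 6000 positions and SE 12000. GB runs over the gene: with the length of its window recovered from the values, the sum in GB never exceeded the sum in PR in any of the 306 genes with bodies of up to 3000 positions, and never exceeded the sum in SE in any of the 1024 genes from 3000 to 6000 positions. Windows reaching 3000 and 6000 positions to either side of the gene's start would give that, although no source states it. SE always held PR, and the remaining 6000 positions of SE are called the outer flank here. With windows so placed, the parts of PR and of the outer flank past the start lie inside the body of every lineage gene. The shortest of those bodies has 15038 positions. GB, PR and the outer flank are then not separate regions.

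The names of the genes were checked through their lengths. The recovered GB window of Col1a1 was 16819 positions, that of Col1a2 35926, that of Col3a1 38169 and that of Pecam1 61069, each the same as RefSeq gives for that gene (build GRCm38.p6). For Acta2 (15038 positions), Pdgfra (45956), Kdr (45629) and Ptprc (112447) the window was equal to the distance from a RefSeq start to the far end of the gene. The windows of Cdh5 and Pdgfrb were 14 and 23 positions shorter than their RefSeq genes. In that table Col1a1 lies at chr11:94936224-94953042, Col1a2 at chr6:4505618-4541543, Col3a1 at chr1:45311538-45349706, Acta2 at chr19:34240336-34255585 and Pdgfra at chr5:75151322-75198206. Pecam1 lies at chr11:106654213-106715281, Kdr at chr5:75932827-75979072, Cdh5 at chr8:104101613-104144504 and Ptprc at chr1:138062859-138175756. RefSeq places Mir7025 inside Pdgfra, and Gm32727 and Gm29682 overlap Kdr and Cdh5, so that the signal of these bodies is shared with those genes. Another gene also lies within 6000 positions of the outermost RefSeq start of Acta2, Pdgfra and Kdr. For Col1a1, Pdgfrb and Cdh5, whose strand was not at hand, another gene lies that close to an end of the gene. The PR and SE signal of these genes may be shared with such neighbours.

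RefSeq start sequences were at hand for 6 of the 10 genes. The 250 bases before the start are shown for the 4 genes whose PR signal was at least 2-fold higher at E15.5 than at E11.5 (Col1a2, Col3a1, Pdgfra and Ptprc), and for Acta2, whose PR window was at 0 at both those stages. They lie at the middle of the PR window if that window is centred on the start. The start used is the RefSeq start from which the GB window runs, which need not be the outermost one. The stretches of Pdgfra and Ptprc therefore lie inside the RefSeq gene, and that of Acta2 lies there in part. For E15.5 over E11.5, 4 of the 7 lineage genes with enough PR signal to be counted were higher, beside 50.0% of all genes. Capitals mark TATAA on the strand of the gene and CCAAT on either strand.
Col1a2, chr6:4505368-4505617, plus strand: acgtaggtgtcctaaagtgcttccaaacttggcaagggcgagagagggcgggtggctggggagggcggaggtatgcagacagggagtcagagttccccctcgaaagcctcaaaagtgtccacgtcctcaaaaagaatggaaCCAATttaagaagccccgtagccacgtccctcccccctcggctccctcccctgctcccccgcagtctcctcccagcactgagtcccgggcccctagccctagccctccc
Col3a1, chr1:45311288-45311537, plus strand: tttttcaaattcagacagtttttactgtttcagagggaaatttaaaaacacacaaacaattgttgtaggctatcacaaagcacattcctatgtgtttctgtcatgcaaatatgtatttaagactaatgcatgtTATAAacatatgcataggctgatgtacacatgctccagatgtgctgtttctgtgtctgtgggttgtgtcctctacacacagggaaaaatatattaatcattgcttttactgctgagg
Pdgfra, chr5:75152001-75152250, plus strand: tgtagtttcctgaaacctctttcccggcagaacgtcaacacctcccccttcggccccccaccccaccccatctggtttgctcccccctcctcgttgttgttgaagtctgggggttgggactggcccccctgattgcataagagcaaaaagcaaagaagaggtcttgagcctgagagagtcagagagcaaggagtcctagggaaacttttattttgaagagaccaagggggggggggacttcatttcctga
Ptprc, chr1:138175306-138175555, minus strand: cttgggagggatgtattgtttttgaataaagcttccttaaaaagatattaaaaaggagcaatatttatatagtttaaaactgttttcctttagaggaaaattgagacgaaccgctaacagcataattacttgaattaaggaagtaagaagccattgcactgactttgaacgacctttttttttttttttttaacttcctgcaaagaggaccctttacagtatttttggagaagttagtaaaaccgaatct
Acta2, chr19:34255374-34255623, minus strand: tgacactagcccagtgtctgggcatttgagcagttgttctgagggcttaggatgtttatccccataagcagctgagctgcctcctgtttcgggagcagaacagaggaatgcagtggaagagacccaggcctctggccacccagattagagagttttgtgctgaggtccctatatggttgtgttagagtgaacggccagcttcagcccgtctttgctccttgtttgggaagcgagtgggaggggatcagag
The sequences have little in common. CG dinucleotides number 11 in Col1a2, 0 in Col3a1 and 4 in each of Pdgfra, Ptprc and Acta2, against a median of 6 over the 32851 such sequences in the table. Col3a1 holds 1 TATAA, found in 16.0% of all of them, and Col1a2 holds 1 CCAAT, found in 33.8%. GC content was 62.0% in Col1a2 and 31.6% in Ptprc, the highest and the lowest of the 5.

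Over their bodies the 10 genes carried signal near the middle of all genes at every stage. In stage order (E11.5, E13.5, E15.5), their median GB was 0.00465, 0.00528 and 0.00477 in the files' units of coverage, against 0.00432, 0.00421 and 0.00371 over all identified genes. In the same order, 7, 7 and 6 of the 10 genes lay above the library's median gene. None was listed at 0 in GB. Among all genes, of any length, 12.9%, 14.8% and 20.3% were, and no such share was taken for genes of like length. Among the 10, only Pdgfrb at E13.5 lay above the 90th percentile of any library.

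**Figure D1:**
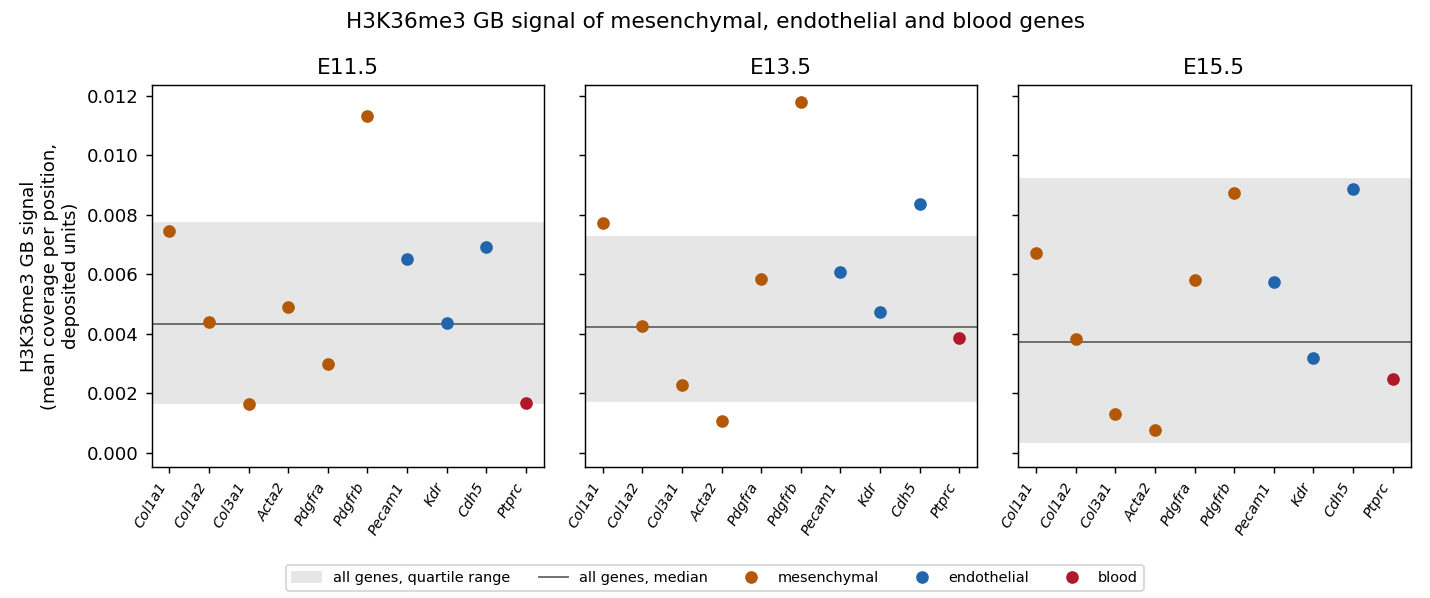
GB signal of the 10 lineage genes by embryonic stage, in mean coverage per position (deposited units), with 1 library per stage. Grey bands hold the middle 50% of all identified genes and the line is their median, 0.00371 at E15.5, where all 10 points lie inside the band.

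The type I collagen genes differed more from each other than between stages. Col1a1, which encodes the alpha1 chain of type I collagen, had GB of 0.00745, 0.00772 and 0.00669 in stage order. Col1a2, which encodes the partner chain of the same fibre, had 0.00439, 0.00426 and 0.00381 in stage order. The highest of each gene's 3 values was 1.15 times the lowest for both, and Col1a1 lay above Col1a2 in every library. Col3a1, the type III collagen gene, was lower still, with 0.00163, 0.00228 and 0.00128 in stage order, the highest being 1.78 times the lowest. Among all genes it stood at percentiles 24.6, 29.7 and 31.6 over the stages.

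Acta2 showed the widest spread over stages of the 10 genes. It encodes smooth muscle actin, made by vascular smooth muscle and activated fibroblasts. Its GB was 0.00491, 0.00105 and 0.000758 from the earliest stage to the latest, so that the highest value was 6.48 times the lowest. These levels rest on little coverage. The files rise in fixed steps, 1 step being the smallest amount of coverage a library can show at 1 position, and the whole body of Acta2 summed to 456, 94 and 70 steps. Over the other 9 bodies the sums ran from 300 to 2806 steps.

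The 2 receptors for platelet-derived growth factor, which drive growth of fibroblasts and pericytes, had different profiles. Pdgfrb carried 0.0113, 0.0118 and 0.00873 in stage order. It had the highest GB of the 10 genes at E11.5 and E13.5 and the next to highest at E15.5. Pdgfra carried 0.00299, 0.00584 and 0.00579, close to 2-fold higher at both later stages than at E11.5, with a ratio of 1.95 for E13.5 over E11.5 and 0.991 for E15.5 over E13.5.

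The endothelial genes held their order at all 3 stages. Cdh5, the cadherin that joins endothelial cells to each other, had GB of 0.00689, 0.00835 and 0.00885 in stage order, and was the highest of the 10 genes at E15.5. Pecam1, an adhesion protein of endothelial junctions, had 0.00650, 0.00605 and 0.00573. Kdr, the main signalling receptor for VEGF, had 0.00436, 0.00473 and 0.00319. Cdh5 was above Pecam1 and Pecam1 above Kdr in each library, and each gene stayed within 1.48 times its own lowest value. The only blood gene, Ptprc, encodes CD45, a phosphatase on the surface of white blood cells. Its GB was 0.00166, 0.00384 and 0.00248, below the median of all genes at every stage.

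By lineage, median GB was 0.00465, 0.00505 and 0.00480 in stage order for the 6 mesenchymal genes and 0.00650, 0.00605 and 0.00573 for the 3 endothelial genes. The ranges overlapped at every stage, since Pdgfrb and Col1a1 lay above Kdr and Pecam1 in all 3 libraries. Col1a2 and Kdr were nearly level with each other at E11.5, with 0.00439 and 0.00436.

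Signal per position differed with gene length: at E11.5 the median gene near the length of Ptprc had GB of 0.00396, and that near the length of Col1a1 had 0.00567. Each gene was therefore also ranked among genes whose GB window was within 1.5 times its own length. Only the 11556 genes with a single solved length were used, which leaves out genes without GB signal in most libraries. On that scale the median percentile of the 10 was 44.0, 58.8 and 47.3 in stage order, beside 46.2, 53.2 and 45.3 among genes above 0 of any length. Pdgfrb stood highest, at percentiles 95.1, 97.8 and 80.8, and its GB was 2.39, 2.48 and 1.89 times the median gene of like length. Cdh5 stood at the 74.6th, 87.8th and 82.7th in stage order. Pecam1 ranged from the 69.4th to the 76.3rd percentile and Col1a1 from the 54.9th to the 71.4th, so that these 4 genes were above genes of like length in all 3 libraries. Col3a1 was far lower, at 0.343, 0.473 and 0.274 times the median gene of like length. Acta2 was at the 41.4th, 5.47th and 11.3rd percentile, and Ptprc at the 6.63rd, 46.55th and 31.5th. Col1a2, Col3a1, Acta2 and Ptprc were below the median of like length at every stage.

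**Figure D2:**
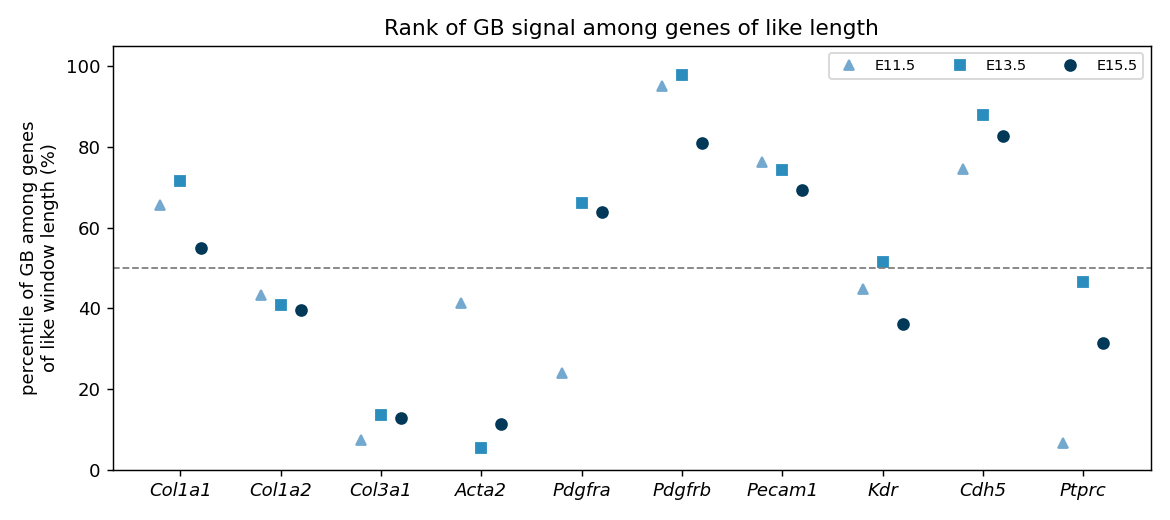
Percentile of each gene's GB signal among genes with a single solved window within 1.5 times its length, with 1 point per library and stage. Pdgfrb, Cdh5, Pecam1 and Col1a1 lie above the dashed line at 50% in all 3 libraries, and Col1a2, Col3a1, Acta2 and Ptprc below it.

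Around the gene starts the values were far less steady. Median PR of the 10 genes was 0.00208, 0.00578 and 0.00760 in stage order, against 0.00394, 0.00368 and 0.00559 over all genes. The median percentile of the 10 was 35.8, 64.7 and 54.8 in stage order. Over the 12000 positions of SE it was 33.6, 64.9 and 42.9, and 4, 6 and 4 of the 10 genes lay above the library's median gene. The PR windows of Acta2 at E11.5 and of Acta2 and Cdh5 at E15.5 were listed at 0, as were 7.59% of all genes at E11.5 and 22.1% at E15.5.

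Single genes show how coarse these windows are. Ptprc had PR of 5.33e-05, 0.00156 and 0.0150 in stage order, which is 2, 56 and 554 steps. All the signal of its SE window at E15.5 lay inside PR, with 0 in the outer flank. Cdh5 had PR of 0.000593, 0.0187 and 0, or 22, 670 and 0 steps, while its outer flank carried 0.00372, 0.00904 and 0.0146. At E15.5 its body was thus the highest of the 10 while the window at its start was at 0. Col1a1 had PR of 0.00928, 0.0219 and 0.00918, with E13.5 at the 98.9th percentile of all genes. Pecam1 had 0.0138, 0.00625 and 0.00755, highest at E11.5.

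The other PR windows moved in several ways. The type I collagen gene Col1a2 had PR of 0.00178, 0.00452 and 0.00766 in stage order, and Kdr had 0.00507, 0.00530 and 0.00896. Pdgfra had 0.00259, 0.00960 and 0.0109, and Pdgfrb, the other receptor, had 0.00232, 0.00776 and 0.00326. Both receptors were thus lowest at E11.5. From E13.5 to E15.5 the value of Pdgfrb fell and that of Pdgfra did not, although Pdgfra went from the 83.7th to the 61.9th percentile of all genes. Col3a1 had 0.00184, 0.00497 and 0.00565, whereas Acta2 had coverage only at E13.5, with 0.00123 or 44 steps. Among all genes, the SE window of Cdh5 stood at percentiles 26.2, 96.3 and 56.2, and that of Col1a1 at 79.6, 94.9 and 75.3. Acta2 was in the lower part of the libraries on this measure too, at 20.9, 27.0 and 24.1.

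In the outer flank, median signal of the 10 genes was 0.00410, 0.00363 and 0.000950 in stage order, beside 0.00356, 0.00357 and 0.00130 over all genes. At E15.5 it was at 0 in Col1a2, Kdr and Ptprc, that is 3 of 10 genes, and in 32.1% of all genes. The exceptions at that stage were Col1a1 with 0.0175 and Cdh5 with 0.0146, at the 88.5th and 84.3rd percentiles.

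**Figure D3:**
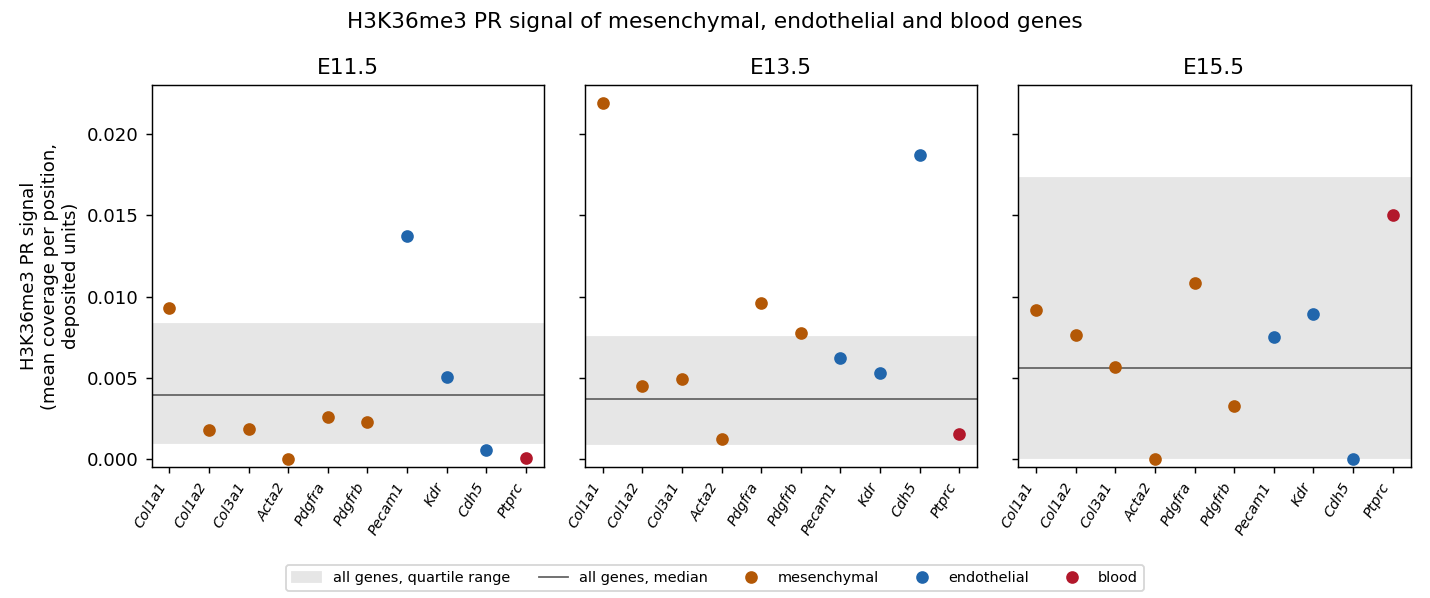
PR signal of the 10 lineage genes at each stage, in mean coverage per position (deposited units) over 6000 positions, with the middle 50% and the median of all identified genes in grey. At E13.5 Col1a1 (0.0219), Cdh5 (0.0187), Pdgfra (0.00960) and Pdgfrb (0.00776) lie above the band, and Acta2 and Cdh5 lie at 0 at E15.5.

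Between stages, genes were counted as higher or lower where log2(value + 0.001) differed by at least 2-fold and the higher of both libraries reached the median over all genes and libraries, 0.00413 for GB and 0.00407 for PR. This ratio understates the change of low genes. For E13.5 over E11.5 in GB, 8 of the 10 genes reached that floor, 0 were higher and 1 was lower (Acta2, log2 ratio -1.53). Over all genes 17.2% were called higher and 19.4% lower. Among genes with a single solved window length between the shortest and the longest of the 10, 8.88% were called higher and 9.39% lower. The median log2 ratio of the 10 genes was 0.07, against 0 over all genes. Col3a1 and Ptprc stayed below the floor, with log2 ratios of 0.32 and 0.86.

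For E15.5 over E13.5 in GB, 7 genes reached the floor and 0 were called in either direction. Over all genes 27.6% were higher and 22.1% lower, and over windows of the same span of lengths 17.2% and 16.2%. Without regard to size, GB was below its E13.5 value in 9 of the 10 genes, Cdh5 being the exception, with a median log2 ratio of -0.20. Over all 24318 genes, 10892 were below and 10736 above their E13.5 value, with a median log2 ratio of 0. The E15.5 library is the one whose genes spread most: the middle 50% of all genes ran from 0.000364 to 0.00920 there and from 0.00172 to 0.00725 at E13.5. For E15.5 over E11.5, 8 genes reached the floor, 0 were higher and 1 was lower, again Acta2, with a log2 ratio of -1.75. The background was 26.5% higher and 22.8% lower over all genes, and 17.0% and 16.5% over the same span of lengths. Any 2 of the 3 stage comparisons share a library, E11.5, E13.5 or E15.5.

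PR gave more calls, in the 10 genes and in all genes. For E13.5 over E11.5, 8 genes reached the floor, of which Col1a1, Col3a1, Pdgfra, Pdgfrb and Cdh5 were higher and Pecam1 was lower, beside 28.7% higher and 32.8% lower over all genes and 28.9% and 33.0% over the same span of lengths. For E15.5 over E13.5, 9 reached it. Ptprc was higher, and Col1a1, Pdgfrb and Cdh5 were lower, beside 52.2% and 24.7% over all genes and 55.7% and 22.4% over the span of lengths. For E15.5 over E11.5, 7 reached it, with Col1a2, Col3a1, Pdgfra and Ptprc higher and 0 lower, beside 50.0% and 26.0% over all genes and 53.3% and 23.1% over the span of lengths. The Ptprc call at that pair rests on 554 steps at E15.5 against 2 at E11.5.

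A set of epithelial genes was set beside the 10 lineage genes, and what made the sets differ was not tested. Names could be tied to 8 of 11 such genes, because their recovered window included the exact RefSeq length: Epcam, Cdh1, Krt8, Krt18, Pdx1, Sox9, Ptf1a and Foxa2. Such a length is a weak tie where other genes share it or the values fit many lengths. This holds for Ptf1a, whose length of 1839 positions is that of 5 RefSeq genes and 1 of at least 40 that fit. These genes encode the sorted surface protein, the cadherin and keratins of epithelia, and transcription factors of the pancreatic epithelium. At E11.5 the median GB was 0.00465 for the 10 lineage genes and 0.00467 for the 8 epithelial genes, and the ranges overlapped, with 0.00163 to 0.0113 for the lineage genes and 0 to 0.0102 for the epithelial genes. At E13.5 the medians were 0.00528 for the lineage genes and 0.00918 for the epithelial genes, and the ranges still overlapped. At E15.5 the lineage genes ran from 0.000758 to 0.00885 with a median of 0.00477, and the epithelial genes from 0.0152 to 0.135 with a median of 0.0516. The lineage genes were thus at 0.996, 0.576 and 0.0925 of the epithelial median GB in stage order. At E15.5 no gene of either set lay in the GB range of the other. Around the gene starts the medians were apart at E11.5 too. Median PR there was 0.00208 for the lineage genes and 0.00670 for the epithelial genes, and median SE was 0.00287 and 0.00710. The epithelial median PR was 0.00777 at E13.5 and 0.0582 at E15.5, beside 0.00578 and 0.00760 for the lineage genes. The PR ranges of the sets overlapped at every stage.

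**Figure D4:**
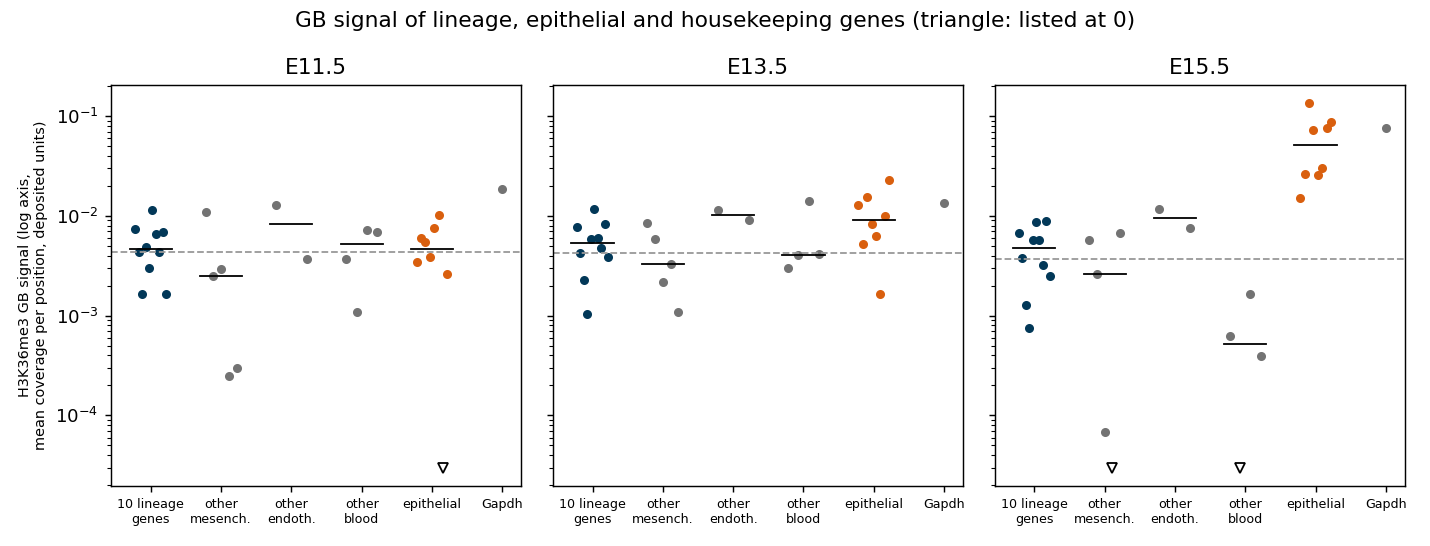
GB signal (log axis, mean coverage per position in deposited units) of the 10 lineage genes, further genes of the same lineages, 8 epithelial genes and Gapdh at each stage. Each point is a gene in 1 library, short lines are medians over a set, the dashed line is the median of all genes, and open triangles are genes listed at 0. The lineage and epithelial genes lie together at E11.5 and apart at E15.5, with medians of 0.00477 and 0.0516.

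Most of the epithelial genes have shorter bodies than the lineage genes, so the contrast was repeated against genes of like length. At E11.5 the median gene stood at 0.917 times its like-length median in the lineage set and at 0.775 times in the epithelial set. At E13.5 the figures were 1.15 for the lineage set and 1.44 for the epithelial set, and at E15.5 0.965 and 6.56. Of the epithelial genes, 8 of 8 were above the like-length median at E15.5, from the 83.4th percentile upward, beside 5 of the 10 lineage genes. For E15.5 over E11.5 in GB, 8 of 8 epithelial genes were at least 2-fold higher, beside 0 of the 8 lineage genes that reached the floor and 26.5% of all genes. The rise was not confined to epithelial genes, since Gapdh was called higher too. Among further genes of the same lineages that reached the floor, 1 of 2 mesenchymal genes (Twist1) was higher and 0 of 2 endothelial genes were called. Of the blood genes 2 of 2 were lower, beside 22.8% of all genes.

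Krt8, a keratin of simple epithelia, had the highest mean percentile of the epithelial set, with GB of 0.00543, 0.0156 and 0.135 in stage order. Ptf1a, a factor of pancreatic progenitors and acinar cells, had the lowest, with 0, 0.0100 and 0.0757. Epcam itself, which encodes the surface protein of the sort and was singled out after its values were seen, had 0.00348, 0.0129 and 0.0152, the smallest of the epithelial values at E15.5 and still above all 10 lineage genes. Gapdh, a glycolytic enzyme gene active in most cells, had 0.0184, 0.0133 and 0.0763, and was above all 10 lineage genes in every library. At E11.5, however, 8 of the 8 epithelial genes lay below Pdgfrb in GB and 6 of the 8 lay below Col1a1.

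Further genes of the removed lineages were also counted, where the length of the window named them. For mesenchyme 5 of 8 were named (Vim, Postn, Dcn, Lum and Twist1), for endothelium 2 of 6 (Tie1 and Eng) and for blood 4 of 6 (Cx3cr1, Lyz2, Csf1r and Itgam). The mesenchymal genes had a median GB of 0.00249, 0.00330 and 0.00258 in stage order, lower than the 0.00465, 0.00505 and 0.00480 of the 6 mesenchymal genes above. Vim, an intermediate filament of mesenchyme, was highest of them by mean percentile, with 0.0110, 0.00857 and 0.00574. Lum, a small matrix proteoglycan, was lowest, with 0.000247, 0.00330 and 0.

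The endothelial genes lay above the median gene except for Eng at E11.5. Tie1, a receptor of endothelial cells, had GB of 0.0128, 0.0114 and 0.0117, and Eng, a co-receptor for TGF-beta, had 0.00371, 0.00909 and 0.00754. The blood genes were the lowest set at E15.5. Csf1r, the receptor for macrophage growth factor, had 0.00721, 0.0140 and 0.00166, and Lyz2, lysozyme of macrophages and neutrophils, had 0.00109, 0.00403 and 0. At E15.5 the 4 blood genes had a median GB of 0.000514 and a median like-length percentile of 6.20, whereas Ptprc stood at 0.00248 and the 31.5th percentile.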

How the data were processed

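H3K36me3 CUT&Tag was read in EpCAM-sorted wild-type fetal pancreatic epithelial cells of 3 embryonic stages, with 1 library each. The authors aligned reads with Bowtie2 2.4.2 to mm10, per the submitters' processing notes. The deposited signal is mean coverage per position for each gene in windows headed GB, PR and SE. No source used here gives its scaling between libraries, and the number of fragments behind a value, and so its counting error, is unknown.

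Low values showed that PR and SE are whole multiples of a fixed step over 6000 and 12000 positions. GB window lengths were solved from that step and set against RefSeq lengths (GRCm38.p6). In a test on 600 simulated windows, the true length was among the solutions in 100.0%. These windows were built by the same step rule, so that share was set by the design and says nothing of the deposited values. Of the deposited genes, 11556 had a single solution, 8832 had several and 3930 had none. Of 25493 rows, 1175 without an identifier were left out. Percentiles are over the 24318 identified genes. Stage ratios used log2(value + 0.001), a 2-fold threshold and a floor at the median over genes and libraries. No test, SD or p-value is possible with 1 library per stage.

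The members and gene lists were chosen with earlier results of these data known. Identifiers of the comparison genes were paired with symbols from general knowledge and kept only where a solved length equalled the RefSeq length, which held for 20 of 33, of which 10 had a single solution and 8 a length that no other RefSeq gene has. Where a member had several solutions, the one nearest the RefSeq length was taken. Like-length ranks and shares over the span of lengths drew only on genes with a single solution. All 10 members are named, and of each comparison list the genes with the highest and lowest mean GB percentile. Alternatives were another pseudocount, fold, floor, length span, scaling and gene universe; the comparison of means was added after seeing the data. Python 3.11.15, numpy 2.4.6, pandas 2.3.3, numba 0.67.0 and matplotlib 3.10.9 were used.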

Additional observations from a re-analysis of the deposited data

How the results depend on the processing

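The 30 results were recomputed 108 times: 82 values were within 1.5 times, that ratio included (5 points for a percentile), and 26 were not. With a pseudocount of 0.005, the genes lower in GB numbered 0 for E13.5 over E11.5 and 0 for E15.5 over E11.5, so the call of Acta2 was lost. In PR, 1 gene was higher and 0 lower for E13.5 over E11.5, 1 was lower for E15.5 over E13.5 and 2 were higher for E15.5 over E11.5. At a 1.5-fold threshold, 1 gene was higher in GB for E13.5 over E11.5 and 1 for E15.5 over E11.5. In PR, 3 were then higher for E15.5 over E13.5 and 1 lower for E15.5 over E11.5. The floor 5 times higher lies above every GB value of the 10 genes, the highest being 0.0118 (Pdgfrb at E13.5). No gene could then be called in GB, so its counts of 0, some of them among the 82, were fixed in advance. In PR only Col1a1 at E13.5, with 0.0219, reached that floor. There 1 gene was then higher and 0 lower for E13.5 over E11.5, 0 higher and 1 lower for E15.5 over E13.5, and 0 higher for E15.5 over E11.5. After division by each library's median GB, 0 genes were lower in PR for E13.5 over E11.5, and after quantile scaling 1 was lower for E15.5 over E11.5. Among genes above 0 only, the median GB percentile was 46.2, 53.2 and 45.3 in stage order, and the PR percentile was 30.5 at E11.5 and 42.0 at E15.5. Among genes of like length the GB percentile was 44.0 at E11.5 and 47.3 at E15.5. Apart from the counts under the higher floor, the cause of these shifts was not tested. Using means in place of medians, an alternative chosen after seeing the data, put the epithelial genes at 0.939, 1.86 and 12.4 times the lineage genes. No paired analysis was possible because a stage holds a single library. The unknown number of fragments limits all 10 lineage genes, and low values such as those of Acta2 most. The highest PR value of the 10, that of Col1a1 at E13.5, summed to 786 steps over its window. The highest GB value, that of Pdgfrb at E13.5, summed to 2806 steps over the body.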
